A study of Mus musculus with 6 samples.

Results

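The carbonic anhydrases were followed in mouse bone marrow-derived eosinophils treated with activated TH2 cell extracellular vesicles (EVs) or sham. The 9 genes chosen by name were Car1, Car2, Car3, Car4, Car5b, Car8, Car11, Car12 and Car13, with Car4 included because its transcript was known to be far higher after EV treatment. Of these, 6 had a row among the 16254 genes of the deposited count table and 4 (Car2, Car4, Car5b and Car13) passed the filter on low counts, which left 13498 genes for testing. Car1, Car3 and Car11 were not analysed here. Another 4 enzymes of the family (Car5a, Car7, Car9 and Car15) had a row, and Car9 and Car15 passed the filter.

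Poly(A) RNA was sequenced from 3 sham-treated and 3 EV-treated cultures. Eosinophils were grown from the bone marrow of C57BL/6 mice, 6 to 12 weeks of age, in FLT3 ligand and stem cell factor followed by IL-5, and were used on day 12. EV-treated cultures received 5e9 EVs/ml for 24 h, isolated from TH2 cells that had been restimulated through CD3 and CD28, and sham-treated cultures received unconditioned medium taken through the same isolation. Both groups shared the genotype and the culture up to day 12, and the cytokines present during the 24 h of treatment are not given in the sources used here. No sorting step is given in the sources used here. The labels call the cultures of a group biological replicates without saying whether they came from separate mice, so that p-values measure the spread between these cultures.

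The libraries held 23697620 to 32808674 estimated counts in the sham group and 32260914 to 37874426 in the EV group. Eosinophil markers were abundant in every library. Over 12 of them the summed normalized count was 942207 to 1186850 in sham and 1344101 to 1501585 after EVs, and at the threshold used throughout (an adjusted p below 0.01 in edgeR's quasi-likelihood test) 8 of the 12 rose and none fell. Among these, Ccr3, the eotaxin receptor, had a log2 fold change of 1.13. Markers of other cells also moved, and of all genes tested 12.1% were called higher and 11.6% lower. Of 13 macrophage markers, 10 were lower and 1 (Adgre1) higher, and their sum went from 86787 to 137105 in sham to 45748 to 52749 after EVs. Of 6 alveolar macrophage markers tested, 4 were lower (sums of 6847 to 11960 and 1745 to 2718), and of 8 mast cell and basophil markers tested, 6 were higher (sums of 6671 to 8541 and 14904 to 17591). The sums were 22204 to 25944 and 20368 to 24272 for neutrophil markers (2 higher and 5 lower of 10), 80.2 to 119 and 188 to 226 for erythroid markers (1 higher of 4 tested), and 141 to 169 and 172 to 247 for dendritic cell markers (1 higher of 5 tested). The T cell markers summed to 346 to 846 in sham and 66.9 to 129 after EVs (1 lower of 2 tested). Most of the sham sums was Cd28, which had 292 to 707 in sham and 27 to 53.1 after EVs. Cd2 and Thy1 were at 0 in all sham libraries and reached at most 2.57 after EVs. In these bulk libraries, fewer cells of a type and less RNA per cell cannot be told apart.

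Carbonic anhydrases are zinc enzymes that interconvert carbon dioxide and water with bicarbonate and a proton, and so set how fast a cell can buffer or move acid. The family is divided by location. Car4 is held on the outer face of the plasma membrane by a glycosylphosphatidylinositol anchor, Car9 and Car12 span the membrane with the catalytic domain outside, Car2 and Car13 are cytosolic, and Car5a and Car5b are mitochondrial. Car8 is a relative that lacks the catalytic activity.

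Car4 stood out from the other enzymes in its level after EV treatment. The gene (ENSMUSG00000000805.18) lies on the plus strand at chr11:84957786-84966044 in GRCm38. Since the results turn on this gene, the stretch from 250 bases before to 20 bases after its RefSeq start (GRCm38.p6, chr11:84957504-84957773, plus strand) is given below, all of it upstream of the start in the GENCODE annotation. Capitals mark the only match in its window (from 250 bases before to 50 after the start) to the motifs searched.

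Car4 promoter: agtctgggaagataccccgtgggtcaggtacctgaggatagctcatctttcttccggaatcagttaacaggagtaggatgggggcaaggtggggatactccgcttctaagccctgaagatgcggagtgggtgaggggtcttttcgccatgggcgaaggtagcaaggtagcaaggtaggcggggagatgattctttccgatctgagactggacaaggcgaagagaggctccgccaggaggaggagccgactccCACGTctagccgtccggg

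The match was the core of the hypoxia-inducible factor (HIF) motif, ACGTG, read on the minus strand. On either strand this core occurred in 19.6% of 32851 RefSeq promoter windows of the same length. The other motifs searched were a STAT motif (TTCNNNGAA, in 8.3% of windows), a STAT6-type motif with 1 more base in the spacer (6.95%), a GATA core (AGATAA, 11.2%) and a C/EBP motif (TTGCNNAA, 10.8%), and none of these letters occurred in the Car4 window. The windows of Car5a, Car5b and Car12 held no match to any of the 5 motifs. The STAT6-type motif occurred once in the window of Car15 and once in 1 of the 3 windows of Car7, another of which held the GATA core. Car9, known for its induction in hypoxia, held the HIF core near its start. The windows around the core in both genes are given so that the flanks can be compared, with the core in capitals.

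Car4, chr11:84957744-84957772: ggagccgactccCACGTctagccgtccgg
Car9, chr4:43506996-43507024: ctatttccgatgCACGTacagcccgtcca

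In estimated counts, Car4 had 11, 7 and 8 in the sham libraries and 1445, 1460 and 1394 in the EV libraries. As normalized counts, scaled with trimmed mean of M-values (TMM) factors, these were 9.91, 8.58 and 9.72 in sham and 1444, 1251 and 1213 after EVs. The 3 EV cultures were close to each other and lay far above all sham cultures. The means were 9.4 ± 0.721 and 1303 ± 123 (SD, n = 3), a coefficient of variation of 7.66% in sham and 9.48% after EVs. The log2 fold change was 7.09 (SE 0.167), or 136-fold. Because Car4 was chosen for this difference, it is given as a description without a test. Among the 13498 genes tested, 19 had a larger log2 fold change. No word of 31 bases in the Car4 transcripts was shared with another annotated gene, so that its counts are not split with a near-identical copy.

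**Figure D1:**
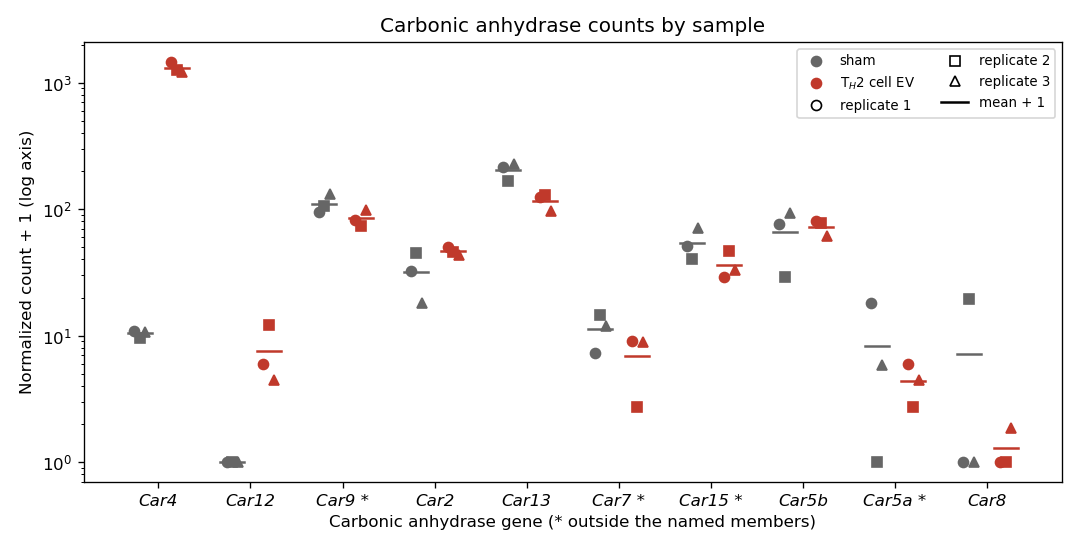
Normalized count (log scale with 1 added) of each carbonic anhydrase with a row, by group, with 1 point per culture (grey for sham, red for EV, the shape giving the replicate) and a bar at the group mean. Car4 goes from 8.58 to 9.91 in the 3 sham cultures to 1213 to 1444 in the 3 EV cultures, whereas the groups lie close together or overlap for the other abundant enzymes.

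Divided by transcript length, the level of Car4 was 7.49 ± 0.574 normalized counts per kb in sham and 1037 ± 98.3 after EVs (SD, n = 3). In order of level among 15522 genes with a transcript length, Car4 moved from place 12544 to place 1971. In sham cultures Car4 lay below Car13, Car9, Car15, Car5b and Car2, and after EVs it lay above every other carbonic anhydrase measured.

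The 3 tested genes nearest to Car4 on each side were looked up after its values were seen. Usp32, a deubiquitinase gene 18.4 kb away and the closest of them, had 4223 ± 547 normalized counts in sham and 4721 ± 184 after EVs (log2 fold change 0.16, edgeR adjusted p = 0.198), and its groups overlapped. Znhit3, 41.4 kb away on the other side, had 75.7, 62.5 and 57.1 in sham and 137, 148 and 139 after EVs, a rise of 1.11 on the log2 scale (SE 0.249, edgeR adjusted p = 0.00597). The log2 fold changes of the others were 0.87 for Myo19 (adjusted p = 0.077), -0.01 for Pigw (0.991), 0.57 for Gm11440 (0.427) and -0.10 for Gm11439 (0.906). The annotated spans of Znhit3 and Myo19 overlap, as do those of Myo19 and Pigw, and Gm11440 and Gm11439 lie inside Usp32, so that reads there may be shared. Znhit3 was the only one of the 6 to pass the threshold. Of all genes tested 23.7% were called in either direction, and 6 genes are too few to set against that share. The fold change of Znhit3 was far smaller than that of Car4, which was chosen for its rise.

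**Figure D2:**
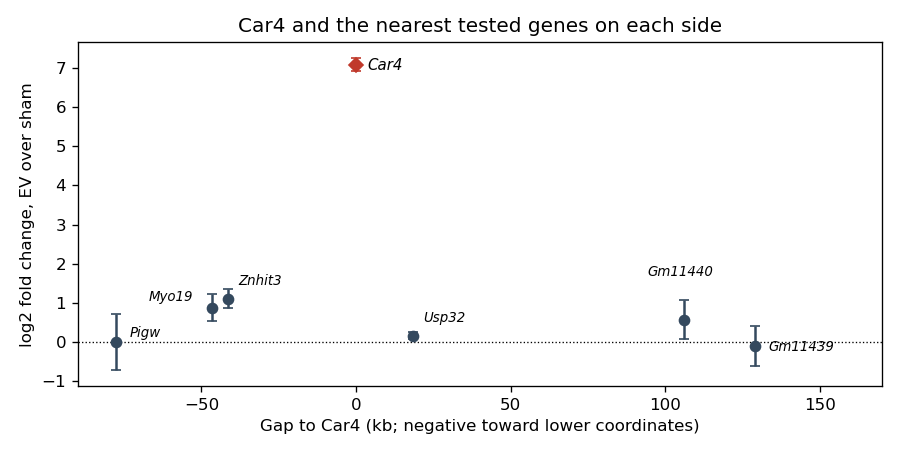
Log2 fold change (EV over sham) of Car4 and of the 3 nearest tested genes on each side against the gap to Car4 in kb, with bars of 1 SE from the edgeR fit. Car4 lies at 7.09 and the neighbours between -0.10 and 1.11.

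The genes whose values over the 6 libraries were most like those of Car4 were found by the root mean square distance between log2 CPM (counts for each 1e6 of the library), each centred on its own mean. They were Lipg, an endothelial lipase (distance 0.156), Ccl24, an eotaxin (0.358), Neb, which encodes nebulin (0.408), Aifm3 (0.457) and Lama5, a laminin chain (0.624). Lipg had 207, 168 and 177 normalized counts in sham and 18777, 16639 and 17008 after EVs. Neb averaged 34.4 ± 14 and 3805 ± 197, and Lama5 averaged 256 ± 8.66 and 12583 ± 124 (SD, n = 3). Ccl24 and Aifm3 had no count in sham, and their estimated levels after EVs were 134 and 106 times a sham floor of 3 counts over the group. With a prior count of 0.5 in place of 2, only Lipg remained among the 5 most alike, so that the order depends on how the low sham values were treated.

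Car12, which like Car4 acts outside the cell, was near the limit of detection. It had no count in the 3 sham libraries and 5, 13 and 4 in the EV libraries, and did not pass the filter. The 22 counts over the EV group correspond to 0.204 CPM (95% exact Poisson interval 0.128 to 0.309, which covers counting error only). This estimate was 5.49 times the sham floor of 0.0372 CPM, and its counting error was not carried into that ratio. When all genes were tested without the filter, the edgeR adjusted p of Car12 was 0.0563. Its level after EVs was 1.76 normalized counts per kb, against 1037 for Car4.

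Car9, the other transmembrane enzyme, had 93.7, 104 and 130.0 normalized counts in sham and 80.9, 72.9 and 96.6 after EVs. The groups overlapped, with a log2 fold change of -0.39 (95% interval -1.0 to 0.22, edgeR adjusted p = 0.311). Car15, which is also anchored to the outer membrane, averaged 53.4 ± 15.8 in sham and 35.2 ± 9.11 after EVs (log2 fold change -0.60, 95% interval -1.59 to 0.40, adjusted p = 0.339). The Car15 counts are uncertain, since 61.3% of its words of 31 bases also occurred in Gm20518 or other genes. Beside Car4, only Car9 and Car15 of the extracellular enzymes passed the filter, and neither was called in either direction. Of all genes tested 23.7% were called, and 2 genes are too few to set against that share.

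Among the cytosolic enzymes, Car13 was the most abundant in sham cultures. It had 216, 165 and 226 normalized counts in sham and 123, 129 and 94.9 after EVs, and each EV culture lay below each sham culture. The means were 203 ± 32.5 and 115 ± 18 (SD, n = 3). On the log2 scale the difference was -0.81 (SE 0.221, 95% interval -1.31 to -0.32). With an edgeR adjusted p of 0.0165 (unadjusted p = 0.00441), Car13 did not pass the threshold of 0.01, and DESeq2 gave 0.0114. Without sham replicate 2, the lowest sham value, the adjusted p was 0.0095, and in the other fits that left out a library it was 0.0366 to 0.0818, the highest without EV replicate 3. Of all genes tested, 35.9% had an adjusted p under 0.05 and 49.6% had groups that did not overlap, so that the position of Car13 was shared by many genes.

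Car2, the fast and widely expressed cytosolic enzyme, had 31.5, 44.1 and 17 normalized counts in sham and 49, 44.6 and 42.6 after EVs. The sham cultures were spread and reached the EV values. The log2 fold change was 0.55 with a 95% interval of -0.55 to 1.65 (edgeR adjusted p = 0.427), an interval that includes 0. Car13 (chr3:14641727-14663002) and Car2 (chr3:14886273-14900770) are 223 kb apart on the plus strand of chromosome 3, with the Car1 and Car3 genes between them. Their estimates differed in sign, although neither passed the threshold and the difference between them was not tested. Car7, another cytosolic enzyme, had 1.71 to 13.5 normalized counts over the 6 libraries and did not pass the filter.

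The mitochondrial Car5b had 75.7, 28.2 and 92.3 normalized counts in sham and 78.9, 76.3 and 60.1 after EVs. All EV values lay within the sham range, with a log2 fold change of 0.13 (95% interval -0.85 to 1.11, edgeR adjusted p = 0.847). Without sham replicate 2 the log2 fold change was -0.22 (adjusted p = 0.615), so that its sign rested on that library. Car5a, the other mitochondrial enzyme, had 17.1, 0 and 4.86 in sham and 5, 1.71 and 3.48 after EVs.

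Car8 was detected in one culture of each group. All 15 counts of the sham group came from sham replicate 2 and the EV group had 1 count in all, which gave 0.186 CPM (95% exact Poisson interval 0.104 to 0.307) and 0.00928 (0.000235 to 0.0517). With the remaining sham libraries at 0, the difference rests on sham replicate 2 and was not called without the filter (edgeR adjusted p = 0.22).

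Of the 3 members other than Car4 that were tested, edgeR's quasi-likelihood test called 0 in either direction at the threshold of 0.01, and so did DESeq2. At an unadjusted p under 0.05, 0 were higher and 1 (Car13) lower with either tool, and 44.5% of all genes tested met this rule in edgeR. At the threshold of 0.01, 12.1% of all genes tested were called higher and 11.6% lower, or 23.7% in either direction, and the median log2 fold change of all genes was -0.014. Of the 3204 genes called, 50.9% were higher, against 30.7% when libraries were scaled by their totals alone. With Car9 and Car15 added, the counts among the 5 enzymes tested besides Car4 were the same.

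**Figure D3:**
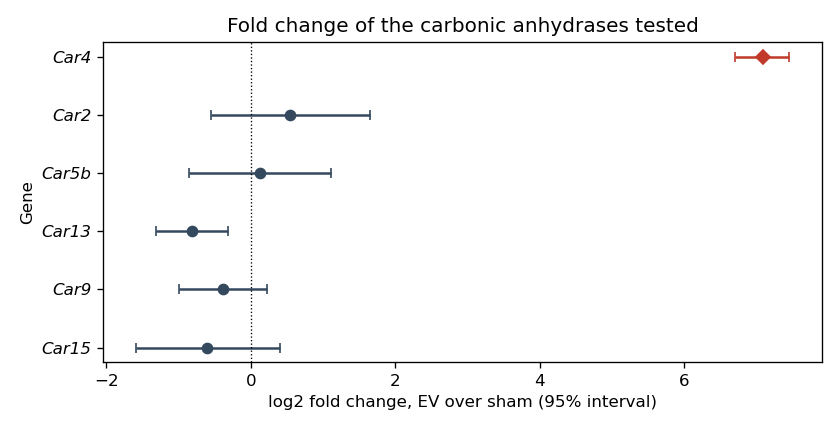
Log2 fold change (EV over sham) of the 6 carbonic anhydrases that passed the filter on low counts, with 95% intervals from the edgeR fit. The interval of Car13 is -1.31 to -0.32, and the intervals of Car2, Car5b, Car9 and Car15 include 0. That of Car4 is 6.71 to 7.46 and is descriptive only, since Car4 was chosen for this difference.

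The composition of the family differed between the groups mainly through Car4. Because Car4 was chosen for its rise, its larger share restates that choice. Summed over the 10 enzymes with a row, the level was 244, 205 and 271 normalized counts per kb in sham and 1324, 1176 and 1129 after EVs. Car4 made up 3.23%, 3.32% and 2.85% of this sum in the sham cultures and 86.8%, 84.7% and 85.5% in the EV cultures. Without Car4, the sum was 236, 199 and 263 in sham and 175, 179.7 and 163 after EVs. The 3 EV sums without Car4 lay below the 3 sham sums, and Car13 made up 36.2% to 39.8% of them in sham and 25.2% to 31.1% after EVs. Of all genes tested, 49.6% had groups that did not overlap. The sums also include Car15, whose counts are uncertain.

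**Figure D4:**
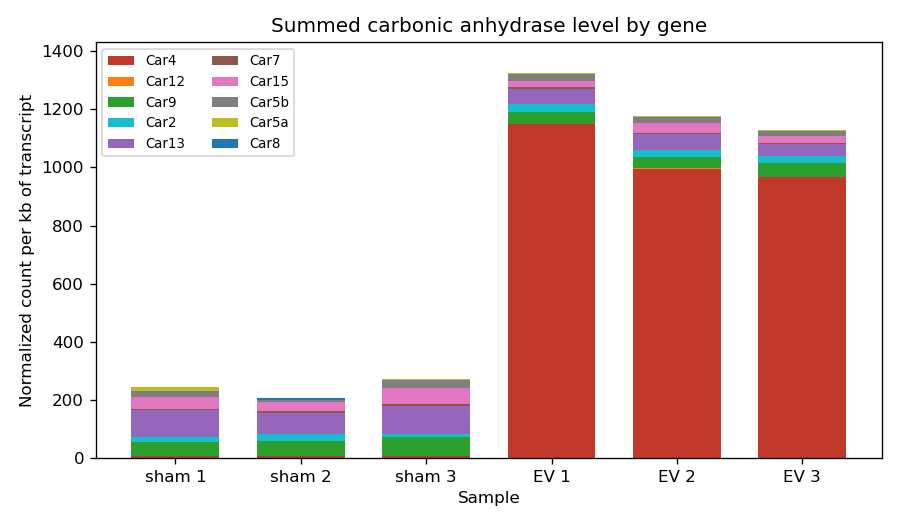
Normalized count per kb of transcript summed over the 10 carbonic anhydrases with a row, with 1 stacked bar per culture and 1 colour per gene. The bars reach 205 to 271 in sham and 1129 to 1324 after EVs, and Car4 fills most of each EV bar.

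The enzymes exchange their products with transporters, and those were examined as lists. Of 10 bicarbonate transporters tested, 1 was called higher (10%) and 2 lower (20%), beside 12.1% and 11.6% of all genes, with a median log2 fold change of -0.02. Slc26a11, an anion exchanger, fell from 187, 369 and 324 normalized counts in sham to 36, 99.4 and 60.9 after EVs (log2 fold change -2.15, SE 0.374, edgeR adjusted p = 0.00136), although without EV replicate 3 the adjusted p was 0.0103. The other called genes, named after their values were seen, were the chloride/bicarbonate exchangers Slc4a3, with a mean of 68.3 in sham and 5.29 after EVs, and Slc26a3, with 31.3 and 87.5. The call of Slc26a3 was lost with the replicate number as a block and in 5 of the 6 fits that left out a library. Their summed level was 6767 to 7379 in sham and 6953 to 7062 after EVs, and the ranges overlapped.

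The list of acid extruders held sodium/proton exchangers, some of them organellar, monocarboxylate transporters, partners of both and a proton channel. Of its 14 genes tested, 4 rose (28.6%) and 3 fell (21.4%), beside 12.1% and 11.6% of all genes, with a median log2 fold change of 0.08. The 3 that fell were Slc16a7, a monocarboxylate transporter (400.0 ± 30.6 to 82.1 ± 17.8, log2 fold change -2.28, edgeR adjusted p = 1.44e-05), and the organellar sodium/proton exchangers Slc9a9 (429 ± 135 to 137 ± 3.37, -1.65, adjusted p = 0.000332) and Slc9a7 (247 ± 30.6 to 99.5 ± 13.3, -1.31, adjusted p = 0.0007). Examples of those that rose were chosen after their values were seen. Slc16a3, a lactate exporter, went from 6980 ± 750.4 to 14824 ± 276 (log2 fold change 1.09, adjusted p = 3.5e-06), and Emb, a chaperone of such transporters, from 3274 ± 83.1 to 5894 ± 514 (0.85, adjusted p = 1.22e-05). Slc9a3r1, a scaffold protein for sodium/proton exchangers, rose by 0.51 on the log2 scale (adjusted p = 0.000137). The summed level was 39062 to 40415 in sham and 52816 to 56245 after EVs.

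Of 20 subunits of the V-ATPase, the proton pump that acidifies lysosomes and other organelles, 1 rose and 9 fell, that is 5% and 45% beside 12.1% and 11.6% of all genes. The median log2 fold change was -0.29. Atp6v0d2 fell from 2574, 4211 and 4439 normalized counts to 796, 1241 and 1129 (log2 fold change -1.82, SE 0.211, edgeR adjusted p = 9.51e-05). Atp6v1c1 (-0.93, adjusted p = 8.69e-05) and Tcirg1, which encodes an a subunit of the membrane sector (-0.86, adjusted p = 8.15e-05), fell as well. Of 13 macrophage markers, 10 were lower in the same libraries, and Trem2 (log2 fold change -3.43) and Lyz2 (-3.28) were among the largest falls. Adgre1 went the other way (0.62), and Mrc1 (0.34) and Fcgr1 (-0.63) were not called. The part of these markers in the V-ATPase values was not tested.

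Zinc is the cofactor of the enzymes, and of 23 zinc handling genes tested 2 rose (8.7%) and 3 fell (13%), with a median log2 fold change of -0.12. These shares lay near those of all genes (12.1% and 11.6%). Slc39a8, a zinc importer, rose from 248, 114 and 265 normalized counts to 1043, 962 and 896 (log2 fold change 2.20, SE 0.251, edgeR adjusted p = 8.54e-05), with all EV values above all sham values. The zinc exporter Slc30a1 (1004 ± 163 to 549.6 ± 66.6, -0.87, adjusted p = 0.000771) and the importer Slc39a1 (1707 ± 183 to 1066 ± 87.8, -0.68, adjusted p = 0.000439) fell. The summed level was 21196 to 22349 in sham and 20686 to 21015 after EVs.

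Since Car9 and Car12 are known targets of the hypoxia response, 15 further hypoxia targets were examined, of which 3 rose and 3 fell, 20% each beside 12.1% and 11.6% of all genes (median log2 fold change 0.07). Vegfa fell from 1596 ± 266 to 395 ± 56.8 normalized counts (log2 fold change -2.01, edgeR adjusted p = 4.37e-06). Egln3, a prolyl hydroxylase, rose from 767 ± 29.9 to 2080 ± 174 (1.44, adjusted p = 1.13e-06) and Slc2a1, the glucose transporter GLUT1, from 2873 ± 226 to 4765 ± 71.9 (0.73, adjusted p = 2.61e-05).

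**Figure D5:**
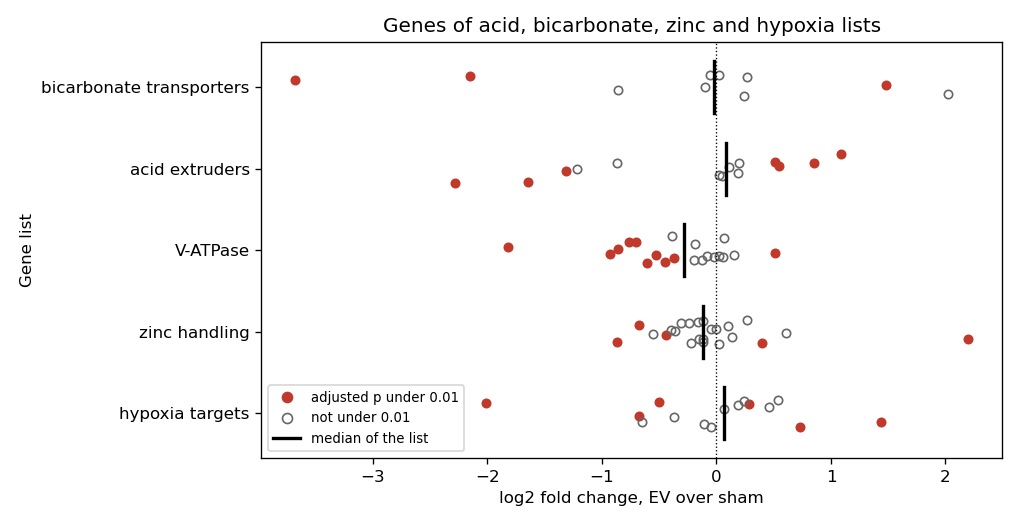
Log2 fold change (EV over sham) of every tested gene of the 5 lists, with 1 point per gene filled points for genes with an edgeR adjusted p under 0.01 and a black bar at the median of each list. The V-ATPase subunits lie mostly below 0, with 9 of 20 called lower and 1 higher, and the other lists also hold called genes on both sides.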

How the data were processed

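RNA sequencing of 3 sham-treated and 3 EV-treated eosinophil cultures was analysed. The authors trimmed reads with Cutadapt, estimated counts with Salmon and deposited the estimated counts for 16254 genes. The submitters' processing notes name mm10, and versions, annotation and strandedness are not given in the sources used here. The authors' comparison table (log2 fold changes, p-values) and normalized counts were not used.

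The estimated counts were rounded and tested in edgeR 4.0.16 (R 4.3.3) with TMM scaling, filterByExpr and the quasi-likelihood test, with Benjamini-Hochberg adjustment over all 13498 genes and a threshold of 0.01. For normalized counts, each library was scaled to the geometric mean of the 6 TMM-adjusted library sizes. Levels per kb used the longest protein-coding GENCODE transcript, or the longest transcript where a gene had no coding one. Standard errors were obtained from the log2 fold change and the F statistic. The step was run on simulated data in which every gene had the same spread and far fewer genes changed than were called here. That run does not give the error rate in these data. DESeq2 1.42.0, library totals, no filter, the replicate block and fits without each replicate were alternatives.

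The members, lists and markers were chosen with earlier results of these data known. Named were all members and other measured carbonic anhydrases, the 5 genes most like Car4, and in each list the 3 called genes with the largest absolute log2 fold change and a mean normalized count over 100. Promoter sequences are from RefSeq (GRCm38.p6), which had windows for Car4, Car5a, Car5b, Car7, Car9, Car12 and Car15. The replicate numbers were shared by the groups, but nothing states that they pair cultures, and same-numbered libraries deviated together with correlations of 0.117, 0.0846 and 0.0371. With 23697620 to 37874426 counts per library, counting error mattered mainly for genes with few counts. The result for 1 gene of the acid extruder list is not reported here.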

Additional observations from a re-analysis of the deposited data

How the results depend on the processing

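The log2 fold change of Car4 was 7.02 to 7.14 in the fits that left out 1 library, and Car2 stayed between 0.28 and 0.89. Scaling by library totals moved the median of all genes from -0.014 to -0.163 and gave 1036 genes higher and 2342 lower (1632 and 1572 with TMM). On that scale Car5b was at -0.01 (edgeR adjusted p = 0.985) and Car13 at -0.96 (0.00713), so that 1 member besides Car4 was called lower, as also with a threshold of 0.05. Leaving out 1 library at a time, the members called lower ranged from 0 to 1, Car13 from -0.94 to -0.68 and Car5b from -0.22 to 0.46. The genes called ranged from 1071 to 1833 higher and from 1018 to 1698 lower, with 1071 and 1018 without EV replicate 3 and 1044 lower without EV replicate 2. With the replicate number as a block, Car4 was at 7.10 and Car13 at -0.81 (adjusted p = 0.0192), and 1794 genes were higher and 1781 lower. All libraries but EV replicate 3 correlated best with their own number. EV replicate 3 had 0.0487 with sham replicate 2 and 0.0371 with its own number. The correlations were small and not independent of each other, so that they do not settle whether the numbers pair cultures. The block changed no call of a carbonic anhydrase. DESeq2 called 5 hypoxia targets higher, and library totals 1 zinc handling gene higher and 5 lower. For Car8 (15 counts in sham and 1 after EVs) and Car12 (0 and 22), the depth limits the comparison. The cause of these differences was not tested.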
